A study of Mus musculus with 6 samples.

Results

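Mt1, Mt2 and Mt3, which encode metallothioneins, and Mtf1, which encodes the metal-responsive transcription factor that acts on them, were read in nuclei of the mouse lumbar spinal cord. They are 4 of the 32285 genes counted and were chosen by their symbols, all 4 of which were found in each of 6 libraries. The nuclei came from frozen tissue of C57BL/6 mice aged 110 days. Each mouse carried SOD1G93A, a transgene for a mutant form of human superoxide dismutase that leads to motor neuron loss. 3 libraries came from PHD1+/+ mice and 3 from PHD1-/- mice, which lack PHD1. PHD1, the product of Egln2, is an enzyme that uses oxygen to hydroxylate prolines. No library came from mice without the transgene, so the levels below describe the diseased cord with and without PHD1. The labels speak of 3 littermate pairs without saying which libraries form a pair. P-values between genotypes measure the spread between these libraries. Those between cell classes or sets of nuclei measure how a difference within libraries varies.

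Metallothioneins are small cysteine-rich proteins that bind zinc and copper ions and take up reactive oxygen species. Mt1 and Mt2 are found in most tissues and are switched on by zinc, cadmium, glucocorticoids and inflammatory cytokines. Mt3 is known as the brain form and has been studied in neurons and astrocytes. MTF1 senses free zinc through its zinc fingers, enters the nucleus and binds metal response elements in the promoters of metallothionein genes and of the zinc exporter gene Slc30a1. In the brain and cord, metallothioneins are best known as products of astrocytes, the glial cells that support neurons and react to injury.

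The 3 metallothionein genes lie side by side on chromosome 8 of GRCm38, the assembly also called mm10, all on the plus strand and with 3 exons each in the GENCODE annotation. Mt3 spans chr8:94152607-94154146, Mt2 chr8:94172664-94173568 and Mt1 chr8:94179082-94180327. Mt4, a relative known from skin and tongue, opens the group at chr8:94137197-94139031, and it had 3 UMIs in all nuclei of the 6 libraries together. From the start of Mt4 to the end of Mt1 the group covers 43131 bases. Mtf1 lies apart at chr4:124802104-124849800, also on the plus strand, with 12 exons.

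Mt1 and Mt2 are near copies, so their coding sequences are shown to let a reader see how far reads can tell them apart. Each is 186 bases long, the capitals mark the 38 bases at which they differ, and 79.6% of the bases are the same.
Mt1: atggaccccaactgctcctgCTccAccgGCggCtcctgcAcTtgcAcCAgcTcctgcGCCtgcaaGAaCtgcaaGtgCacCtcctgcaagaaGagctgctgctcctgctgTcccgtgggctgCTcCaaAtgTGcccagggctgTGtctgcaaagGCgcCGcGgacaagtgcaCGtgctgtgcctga
Mt2: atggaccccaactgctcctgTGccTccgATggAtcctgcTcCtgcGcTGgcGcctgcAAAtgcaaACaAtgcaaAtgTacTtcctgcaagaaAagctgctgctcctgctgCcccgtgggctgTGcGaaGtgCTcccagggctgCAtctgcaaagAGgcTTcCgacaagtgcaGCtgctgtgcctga
The 3′ untranslated regions, where a 3′ library is read, were 57.5% identical between Mt1 and Mt2, and the longest run of bases they shared there was 10. The longest run shared by any pair of the 3 transcripts was 27 bases, between Mt1 and Mt3. Which bases the reads covered is unknown here, so a part of the UMIs could still have been assigned to the wrong member.

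The promoters of the 3 metallothionein genes are shown because MTF1 is known to act there. Each is the 250 bases before the RefSeq start in GRCm38.p6, plus strand, 5′ to 3′, and capitals mark matches to TGCACNC or TGCGCNC, the core of the metal response element, on either strand. The cores differ at 1 base and cannot match at the same place.
Mt1 (chr8:94178839-94179088): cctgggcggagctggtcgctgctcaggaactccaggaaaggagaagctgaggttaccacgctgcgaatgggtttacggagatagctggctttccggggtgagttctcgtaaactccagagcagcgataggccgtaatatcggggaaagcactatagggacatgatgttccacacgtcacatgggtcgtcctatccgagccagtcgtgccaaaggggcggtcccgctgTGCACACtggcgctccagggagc
Mt2 (chr8:94172368-94172617): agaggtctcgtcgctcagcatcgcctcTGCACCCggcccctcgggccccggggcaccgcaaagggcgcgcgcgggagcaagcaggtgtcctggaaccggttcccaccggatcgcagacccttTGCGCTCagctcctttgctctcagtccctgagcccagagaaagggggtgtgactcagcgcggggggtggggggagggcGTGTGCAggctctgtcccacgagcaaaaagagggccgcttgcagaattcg
Mt3 (chr8:94152357-94152606): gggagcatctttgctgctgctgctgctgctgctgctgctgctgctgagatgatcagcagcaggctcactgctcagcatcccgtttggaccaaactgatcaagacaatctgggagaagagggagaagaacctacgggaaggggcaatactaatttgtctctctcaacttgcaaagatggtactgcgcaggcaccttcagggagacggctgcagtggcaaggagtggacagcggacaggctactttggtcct
Mt1 had 1 match, from 23 to 17 bases before its start. Mt2 had 3 matches, the first from 223 to 217, the second from 128 to 122 and the last, on the minus strand, from 50 to 44 bases before its start. The Mt3 and Mtf1 windows had 0 matches, and the window of Slc30a1 had 1. Of 27025 promoters of this length, 21.3% had at least 1 match and 1.28% had 3 or more. GENCODE also places starts of Mt1 at 122 and 152 bases after the end of the window, of Mt2 at 46 and 242 and of Mt3 at 139 bases after it, so bases closer to those starts were not searched. Another Mt1 start lies inside its window, and Mtf1 has starts 33 and 129 bases after the end of its own. The numbers of matches hold for these windows only. A match is a match of letters, and binding was not measured.

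The libraries held 42758 barcodes, of which 41896 were kept as nuclei, with 14085730 to 32544881 UMIs per library and a median of 1363 to 2966 UMIs per nucleus. A UMI, or unique molecular identifier, counts 1 captured molecule, and levels below are CPM, a gene's UMIs relative to all UMIs of its cell class and library. Cell classes were rebuilt by clustering without the 4 genes, and 13 classes with at least 10 nuclei in every library held 89.1% of the nuclei. The astrocyte class had 1437 nuclei. All 12 of its marker genes were higher in it than in all nuclei, with a summed level of 6010 to 11087 CPM against 231 to 731 CPM. Oligodendrocyte markers summed to 876 to 3316 CPM in the same class. A further 347 nuclei in clusters with astrocyte markers but rich in mitochondrial RNA were kept out of it by a threshold set after the clusters were seen. They came mostly from replicate 1, of which the PHD1+/+ library held 270 and the PHD1-/- library 54, while each of the remaining libraries held 1 to 9. Egln2, the targeted gene, had 29.6, 18.8 and 16.5 CPM in PHD1+/+ replicates 1 to 3 and 9.66, 9.03 and 10.1 CPM in PHD1-/- replicates 1 to 3. Which exons of Egln2 the deletion removes is unknown here. The groups did not overlap for Egln2 (exact permutation test, two-sided, p = 0.1, the smallest that 3 against 3 libraries allow), as was so for 4.01% of 19342 genes.

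Replicate 1 of both groups stood apart from the other 4 libraries. Its median depth was 1363 and 1365 UMIs per nucleus, against 2359.5 to 2966 in the others, and the pair shared 86 barcodes with each other and 0 to 5 with any of the other 4, which shared 4 to 13 among themselves. The labels name no batch. The summed level of 26 genes for ribosomal and respiratory proteins, taken as a sign of cytoplasmic RNA, was 7255 CPM in PHD1+/+ replicate 1 and 4209 CPM in PHD1-/- replicate 1, against 1923 to 2336 CPM in the other 4. The 13 genes of the mitochondrial genome summed to 5658 and 3287 CPM in the replicate 1 libraries and to 1442 to 2129 CPM in the others. The 3 metallothioneins were higher in these 2 libraries as well, and the part that cytoplasmic RNA plays in that was not tested. Results are therefore given with and without them.

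Mt1 was highest in astrocytes in 6 of 6 libraries. Its level there was 603 to 2136 CPM with a median of 1077 CPM, the lowest in PHD1-/- replicate 2 and the highest in PHD1+/+ replicate 1. Ependymal cells, which line the central canal, followed with 268 to 1417 CPM and a median of 433 CPM. Endothelial cells had 122 to 1576 CPM (median 533) and Schwann cells, the myelinating glia of the nerve roots, 220.0 to 1151 CPM (median 496). These 3 classes could not be put in order, since neighbours among them differed by 0.05 or less on the log2 scale and in mixed directions across libraries.

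A group of classes with lower Mt1 came next. Microglia had 118 to 917 CPM (median 123), meningeal fibroblasts 96.7 to 1050.2 CPM (median 155), oligodendrocytes 101 to 808 CPM (median 159) and mural cells 103 to 882 CPM (median 143). These 4 again overlapped, with mean differences between neighbours of 0.05 or less on the log2 scale. Oligodendrocyte precursors (OPC) had 72.4 to 483 CPM (median 90.7) and newly formed oligodendrocytes 41.4 to 399.9 CPM (median 101). Neurons had the least. Excitatory neurons had 25.8 to 313 CPM (median 34.0), inhibitory neurons 22.3 to 304 CPM (median 29.4) and neurons that contact the cerebrospinal fluid (CSF) 0 to 279 CPM (median 52.1). The 0 came from PHD1-/- replicate 3, where a count of 0 allows up to 21.0 CPM.

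Mt2 followed nearly the same order at a lower level. Astrocytes had 192 to 1037 CPM with a median of 321 CPM and were highest in 5 of 6 libraries, endothelial cells being highest in the other. Ependymal cells had 48.7 to 564 CPM (median 163), Schwann cells 83.5 to 338 CPM (median 185) and endothelial cells 48.8 to 426 CPM (median 143). As for Mt1, these 3 classes were not told apart. Microglia had 15.8 to 301 CPM (median 36.5), meningeal fibroblasts 17.6 to 304 CPM (median 28.0), oligodendrocytes 18.0 to 232 CPM (median 26.7) and OPC 5.51 to 185 CPM (median 24.0). Mural cells had 0 to 216 CPM (median 42.3), newly formed oligodendrocytes 8.09 to 119 CPM (median 20.8) and CSF-contacting neurons 0 to 132 CPM (median 35.2). A count of 0 allows up to 97.1 CPM in the mural cells of PHD1-/- replicate 2 and up to 44.6 CPM in the CSF-contacting neurons of PHD1+/+ replicate 2. Excitatory neurons had 6.28 to 111 CPM (median 8.72) and inhibitory neurons 3.87 to 90.7 CPM (median 5.61), and in 6 of 6 libraries the excitatory class was the higher of the pair.

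Mt3 had another order, led by ependymal cells and not by astrocytes. Ependymal cells had 195 to 737 CPM with a median of 364 CPM and were highest in 5 of 6 libraries, and Schwann cells, with 162 to 518 CPM (median 266), in the other. Astrocytes had 133 to 534 CPM (median 207). Microglia had 49.0 to 479 CPM (median 92.4), below astrocytes in 6 of 6 libraries. The classes from microglia downward in mean log2 level had medians of 33.2 to 137 CPM. Endothelial cells had 24.4 to 489 CPM (median 137), oligodendrocytes 52.7 to 373 CPM (median 73.8), meningeal fibroblasts 35.2 to 508 CPM (median 75.0) and OPC 36.2 to 249 CPM (median 87.4). Mural cells had 26.5 to 373 CPM (median 57.2), CSF-contacting neurons 31.2 to 263 CPM (median 59.6) and excitatory neurons 31.0 to 179 CPM (median 37.0). Inhibitory neurons had 24.9 to 164 CPM (median 38.8) and newly formed oligodendrocytes 16.2 to 184 CPM (median 33.2), the lowest by mean log2 level.

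Mtf1 was spread more evenly. By mean log2 level it was highest in oligodendrocytes and newly formed oligodendrocytes, but not in their precursors. Oligodendrocytes and newly formed oligodendrocytes were each highest in 2 of 6 libraries, and ependymal and endothelial cells in 1 each. Oligodendrocytes, the myelin-forming cells of the cord, had 53.7 to 71.9 CPM (median 60.4) and were among the top 3 classes in 6 of 6 libraries. Newly formed oligodendrocytes had 43.2 to 72.8 CPM (median 55.7) and ependymal cells 33.0 to 73.0 CPM (median 40.3). Microglia had 27.7 to 40.2 CPM (median 34.2), CSF-contacting neurons 14.0 to 59.8 CPM (median 35.6), excitatory neurons 26.3 to 32.9 CPM (median 29.0) and inhibitory neurons 21.0 to 33.8 CPM (median 27.1). Astrocytes, the class with the most Mt1 and Mt2, had only 17.5 to 32.0 CPM of Mtf1 (median 21.6). OPC had 10.9 to 56.8 CPM (median 21.9) and meningeal fibroblasts 6.70 to 35.6 CPM (median 26.4). Mural, endothelial and Schwann cells had so few Mtf1 UMIs (12, 22 and 40 over the 6 libraries) that at least 1 library of each was at 0. Over all nuclei Mtf1 had 32.0 to 37.6 CPM. PHD1+/+ replicate 1 was the lowest library and PHD1-/- replicate 1 the highest, so replicate 1 was not raised in both groups.

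**Figure D1:**
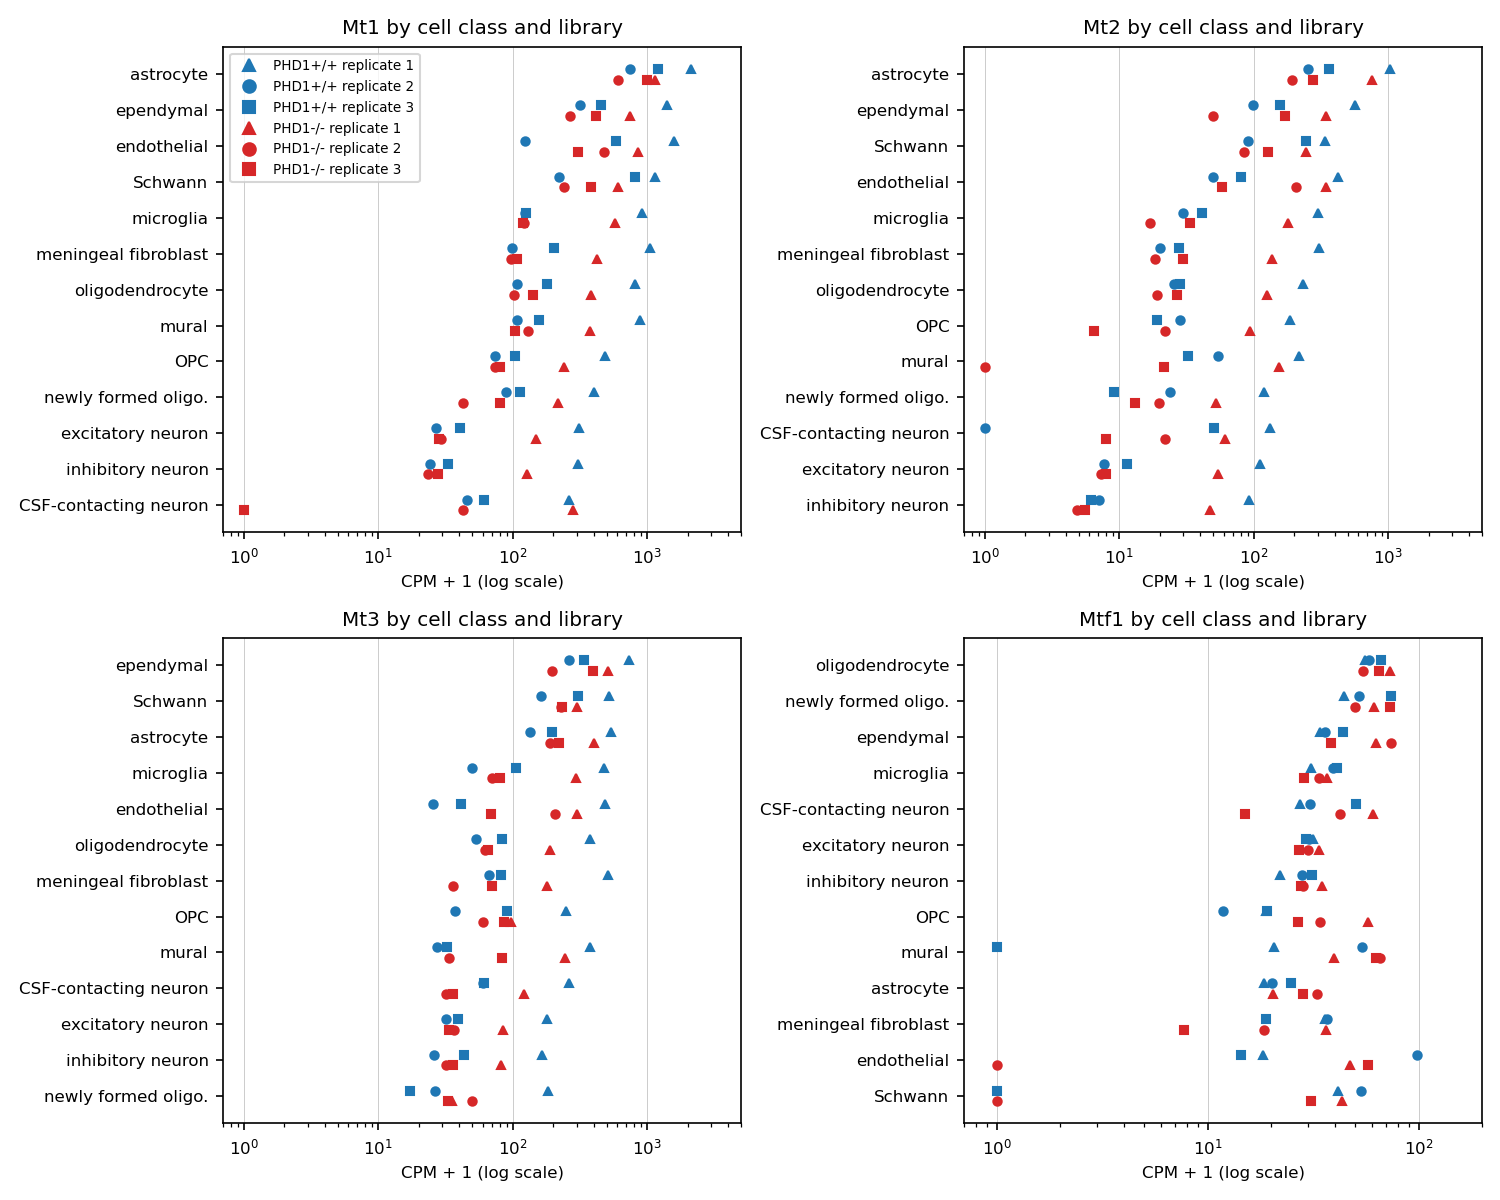
Level of each gene as CPM + 1 on a log scale, 1 point per library (triangles replicate 1, circles replicate 2, squares replicate 3, blue PHD1+/+, red PHD1-/-), for 13 cell classes ordered by mean log2 level. By that mean astrocytes lead for Mt1 and Mt2, ependymal cells for Mt3 and oligodendrocytes for Mtf1. The triangles mostly lie to the right for the 3 metallothioneins but not for Mtf1.

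Neighbours in these orders were compared within libraries by an exact two-sided paired permutation test, 48 pairs in all. In this exact test 9 pairs reached p = 0.03125, the smallest that 6 libraries allow, and none passed Benjamini-Hochberg adjustment over the 48 (smallest adjusted p = 0.167). For Mt1 the 5 such steps were from astrocytes to ependymal cells, Schwann cells to microglia, mural cells to OPC, newly formed oligodendrocytes to excitatory neurons and excitatory to inhibitory neurons. The step from astrocytes to ependymal cells was 1.05 ± 0.35 for Mt1 and 1.21 ± 0.44 for Mt2 (log2, mean ± SD, n = 6 libraries). For Mt3 the only such step, 0.96 ± 0.57, was from astrocytes to microglia. For Mtf1 there was none, so its order is a description. With 6 libraries, 9 pairs at the smallest possible p cannot pass adjustment over 48 pairs. The pairs were also taken from an order of the same levels. The lack of a pass therefore does not show that neighbouring classes are alike.

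Astrocytes were then set against each of the 12 other classes in 1 edgeR fit over 11560 genes with the library as a term. This fit pools the spread of a gene over all 13 classes of the same 6 libraries. Its p-values can therefore fall far below those of the exact test and are not a measure of the spread between libraries. Mt1 was higher in astrocytes than in 12 of 12 classes and Mt2 likewise in 12 of 12 (edgeR quasi-likelihood test, Benjamini-Hochberg adjusted p of 2.02e-06 or less for Mt1 and 1.51e-06 or less for Mt2), where 17.3% to 29.1% of all genes were called higher. By class these shares were 17.3% against mural cells, 17.7% against ependymal cells, 19.7% against meningeal fibroblasts, 20.8% against Schwann cells, 21.5% against OPC, 24.3% against CSF-contacting neurons and 24.6% against oligodendrocytes. They were 25.5% against newly formed oligodendrocytes, 25.9% against both microglia and endothelial cells, 28.9% against excitatory and 29.1% against inhibitory neurons. The log2 difference of Mt1 ran from 1.29 ± 0.23 (SE) against ependymal cells to 4.31 ± 0.31 against CSF-contacting neurons. Against oligodendrocytes it was 2.16 ± 0.22, a 4.46-fold difference, and against excitatory neurons 4.05 ± 0.24, a 16.5-fold difference. Mt2 was 2.47-fold higher than in ependymal cells, its smallest difference, and 27.2-fold higher than in inhibitory neurons (log2 4.76 ± 0.21), its largest. The median of all genes lay between -0.19 and 0.38 in these contrasts. Cytoplasmic and mitochondrial RNA differed between classes too. Of 11 mitochondrial genes tested, 11 were called lower and 0 higher than in ependymal cells (17.6% and 17.7% of all genes). Of 26 cytoplasmic RNA genes, 25 were lower and 0 higher than in endothelial cells (19.9% and 25.9%). Against excitatory neurons 21 were higher and 0 lower (28.9% and 32.8%). Their part in the class differences of the metallothioneins was not tested. With replicates 2 and 3 alone, Mt1 and Mt2 were again called higher in 12 of 12 classes, and the difference from inhibitory neurons was 5.04 ± 0.11 for Mt1 and 5.70 ± 0.14 for Mt2.

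Mt3 was higher in astrocytes than in 10 of 12 classes, by 0.92 ± 0.23 (log2 ± SE) over endothelial cells up to 2.37 ± 0.26 over newly formed oligodendrocytes. It was lower than in ependymal cells, at -0.47 ± 0.18 (edgeR quasi-likelihood, Benjamini-Hochberg adjusted p = 0.0380), in 6 of 6 libraries. This call was lost in 5 of 12 alternative fits and the sign turned in 2, both of which took in more astrocyte-marker nuclei: 0.18 when the 4 genes were used for clustering and 0.36 when clusters rich in mitochondrial RNA were added to the class. Against Schwann cells the difference was 0.14 ± 0.20 and was not called (adjusted p = 0.626, edgeR), with astrocytes higher in 2 of 6 libraries. Under the same 2 settings it was called, at 0.80 and 0.97.

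Mtf1 was not called higher in astrocytes against any class and was called lower against 4, where 9.48% to 32.8% of all genes were called lower. Those shares were 32.7% against oligodendrocytes, 15.3% against newly formed oligodendrocytes, 17.6% against ependymal cells and 32.8% against excitatory neurons. In the 8 classes without a call they were 9.48% (mural), 12.5% (CSF-contacting), 16.9% (meningeal fibroblast), 17.2% (Schwann), 18.9% (OPC), 19.9% (endothelial), 30.3% (microglia) and 32.4% (inhibitory). The difference was -1.61 ± 0.19 (log2 ± SE) from oligodendrocytes and -1.33 ± 0.27 from newly formed oligodendrocytes, in 6 of 6 libraries each (edgeR quasi-likelihood, adjusted p = 7.55e-12 and 2.64e-05). It was -0.75 ± 0.29 from ependymal cells and -0.49 ± 0.20 from excitatory neurons (edgeR, adjusted p = 0.0315 and 0.0274). The call against ependymal cells was lost in 9 of 12 alternative fits and that against excitatory neurons in 8 of 12. With replicates 2 and 3 alone the first 2 calls were made and the last 2 were not. The latter were also lost, leaving 2 classes, without PHD1+/+ replicate 2, without PHD1+/+ replicate 3 or without PHD1-/- replicate 1.

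Shares of nuclei with a UMI were read after thinning each nucleus to 1000 UMIs, and unthinned. Nuclei with fewer than 1000 UMIs were left out of the thinned shares, so the 2 kinds of share cover different nuclei. Left out were 147 astrocytes, 38 in PHD1+/+ and 109 in PHD1-/- libraries. So were 305 ependymal cells, 1130 microglia, 3792 oligodendrocytes and 99 excitatory neurons. Among astrocytes, 39.1% to 79.9% of nuclei had a Mt1 UMI (median of libraries 57.4%), against 3.27% to 28.2% of excitatory neurons (median 4.21%). Unthinned, the share was 61.1% to 84.4% in astrocytes, at a median of 1143 to 2595 UMIs per nucleus, and 15.9% to 50.4% in excitatory neurons, at 2142 to 6725 UMIs. Free RNA in the droplets also gives UMIs, and thinning lowers its part more in classes of greater depth, so the thinned share in neurons is no background for shallower classes. Unthinned, excitatory neurons of replicates 2 and 3 had 15.9% to 21.7%, and microglia had a median of 16.6% over the 6 libraries at 697 to 1498 UMIs per nucleus. Shares in oligodendrocytes, microglia and neurons are therefore not put in order.

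Mt2 was found in 12.5% to 53.2% of thinned astrocytes (median 30.0%) and in 0.484% to 12.3% of excitatory neurons, or unthinned in 32.6% to 60.5% and 4.42% to 22.7%. Mt3 was found in 9.54% to 43.2% of astrocytes (median 17.2%), in 22.2% to 43.1% of ependymal cells and in 3.17% to 18.1% of excitatory neurons. Unthinned, the Mt3 shares of astrocytes (27.1% to 48.1%) and excitatory neurons (17.7% to 35.3%) overlapped. Any of the 3 was found in 51.6% to 92.8% of astrocytes. Mt1 and Mt2 tended to share nuclei in 5 of 6 libraries, the share with Mt2 being higher in astrocytes with a Mt1 UMI than in those without in all but PHD1+/+ replicate 2, where it was 19.8% against 21.7%. In PHD1-/- replicate 3, which had the most astrocytes, these shares were 29.5% and 18.4%. Mtf1 was found in 1.44% to 3.91% of astrocytes and 5.34% to 6.76% of oligodendrocytes, or unthinned in 2.47% to 8.53% and 5.55% to 12.2%. All of these shares count nuclei with a captured molecule, not nuclei that express the gene.

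How Mt1 grew with the depth of a nucleus differed between classes. In replicates 2 and 3, astrocytes had 65.2 Mt1 UMIs per 100 nuclei at 500 to 1000 UMIs per nucleus, 170.5 at 1000 to 2000, 239 at 2000 to 4000 and 451 above 4000. Oligodendrocytes had 21.0, 24.1, 26.1 and 25.1 in the same bins, so that their Mt1 count stayed level while the depth rose and their CPM fell from 249.7 to 48.0. Microglia had 17.1, 18.3 and 18.8 in the first 3 bins, and excitatory neurons 13.7, 19.2 and 22.5 in the last 3. At 2000 to 4000 UMIs per nucleus, oligodendrocytes, microglia and excitatory neurons thus had 26.1, 18.8 and 19.2 Mt1 UMIs per 100 nuclei, against 239 in astrocytes. The lower CPM of neurons moved with their greater depth, and the order of these 3 classes in CPM is a description of CPM only. Mtf1 in the same oligodendrocytes did rise with depth, from 7.27 to 9.31, 14.5 and 26.0 UMIs per 100 nuclei. In replicate 1, oligodendrocytes had 51.9, 79.8 and 107 Mt1 UMIs per 100 nuclei over the first 3 bins and astrocytes 100, 214 and 508. Empty droplets were not analysed here, so the part of free RNA in these counts was not tested.

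**Figure D2:**
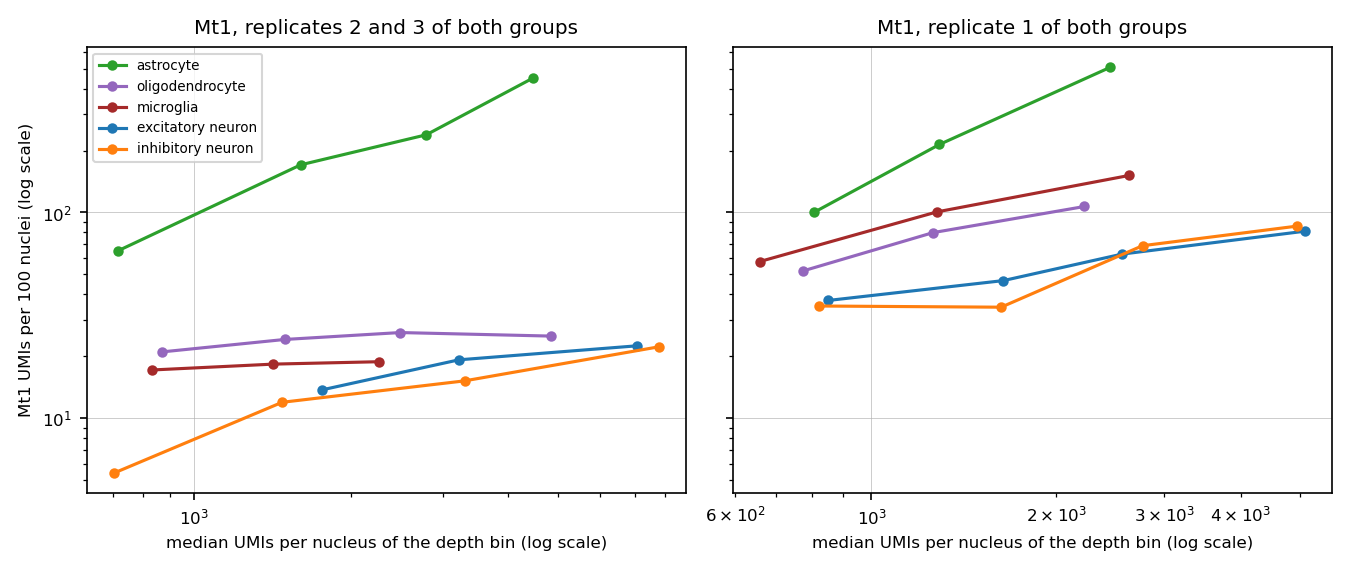
Mt1 UMIs per 100 nuclei against the median UMIs per nucleus of each depth bin, both on log scales, for 5 classes, with replicates 2 and 3 of both groups on the left and replicate 1 on the right. The astrocyte line climbs from 65.2 to 451 on the left while the oligodendrocyte line stays between 21.0 and 26.1.

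The 3 genes also made up different shares of the metallothionein UMIs. UMIs count 3′ ends and were not divided by transcript length, and the shares are of the summed UMIs of Mt1, Mt2 and Mt3 in a class. In astrocytes Mt3 gave 11.1% to 19.2% (median 14.6%), Mt2 18.5% to 32.8% (median 21.5%) and Mt1 49.9% to 68.2% (median 63.6%). In oligodendrocytes Mt3 gave 26.4% to 33.8% (median 28.3%) and in ependymal cells 27.1% to 40.1% (median 36.9%). In neurons it gave 29.2% to 50.9% in the excitatory class (median 46.1%) and 29.3% to 54.0% in the inhibitory class (median 49.3%), the highest medians of the 10 classes. This order did not hold in every library, since in PHD1-/- replicate 1 ependymal cells had 31.8% against 29.2% in excitatory neurons.

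The Mt3 share was lower in astrocytes than in 8 of 9 other classes in 6 of 6 libraries each (exact two-sided paired permutation test, p = 0.03125, the smallest possible, Benjamini-Hochberg adjusted over 9 comparisons p = 0.0352). The mean difference was -14.0 ± 2.94 percentage points (SD, n = 6) from oligodendrocytes and -29.8 ± 12.1 from inhibitory neurons. Newly formed oligodendrocytes were the exception, with a lower share in astrocytes in 5 of 6 libraries (exact permutation p = 0.09375). Endothelial cells, mural cells and CSF-contacting neurons were not compared, since each had fewer than 10 such UMIs in at least 1 library. Endothelial cells had a Mt3 share of 5.66% to 23.1% (median 19.6%) in 5 libraries. In PHD1+/+ replicate 3 their share of 5.66% was below the 11.1% of astrocytes, and in the remaining libraries it was above that of astrocytes. Neurons of replicate 1 had a Mt3 share of 29.2% to 31.7%, and those of replicates 2 and 3 had 43.3% to 54.0%, so the gap to astrocytes was wider without replicate 1.

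**Figure D3:**
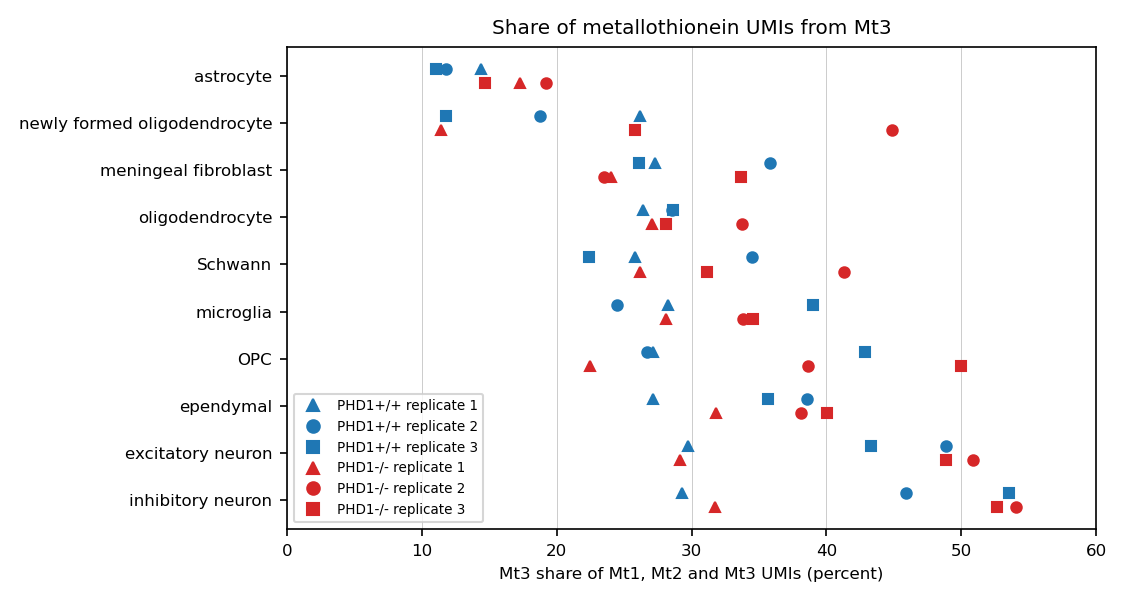
Mt3 share of the summed Mt1, Mt2 and Mt3 UMIs, in percent, 1 point per library, for the 10 classes with at least 10 such UMIs in every library. Astrocytes lie at 11.1% to 19.2%, while neurons lie near 30% in replicate 1 (triangles) and above 43% in the other libraries.

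Astrocytes with RNA of Gfap, the intermediate filament gene that rises in reactive astrocytes, had more Mt1 and Mt2 than the rest. After thinning to 1000 UMIs, 493 astrocytes had a Gfap UMI and 797 had none. The 147 astrocytes with fewer than 1000 UMIs, of which 124 came from replicate 1, were left out. Mt1 was 550 to 2266 CPM (median 1307) in the first set and 477 to 1750 CPM (median 807) in the second. The log2 difference was 0.46 ± 0.11 (SE), or 1.37-fold, and was higher in 5 of 6 libraries, PHD1+/+ replicate 3 being the exception (edgeR quasi-likelihood over 3141 genes, Benjamini-Hochberg adjusted p = 0.000935). Of the genes tested, 4.46% were called higher and 4.17% lower with Gfap.

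Mt2 was 208 to 1114 CPM (median 407) with and 68.2 to 767 CPM (median 334) without a Gfap UMI, a log2 difference of 0.54 ± 0.16 (SE) in favour of the Gfap set in 5 of 6 libraries (edgeR quasi-likelihood, adjusted p = 0.0130). The call on Mt2 was lost without PHD1-/- replicate 1, where the difference was 0.35 ± 0.18 (adjusted p = 0.283, edgeR), while the call on Mt1 was made without any 1 library. Mt3 differed by 0.22 ± 0.19 and was not called (adjusted p = 0.620, edgeR). Mtf1 had too few UMIs in these nuclei to be tested, with 0 to 50 CPM in either set.

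**Figure D4:**
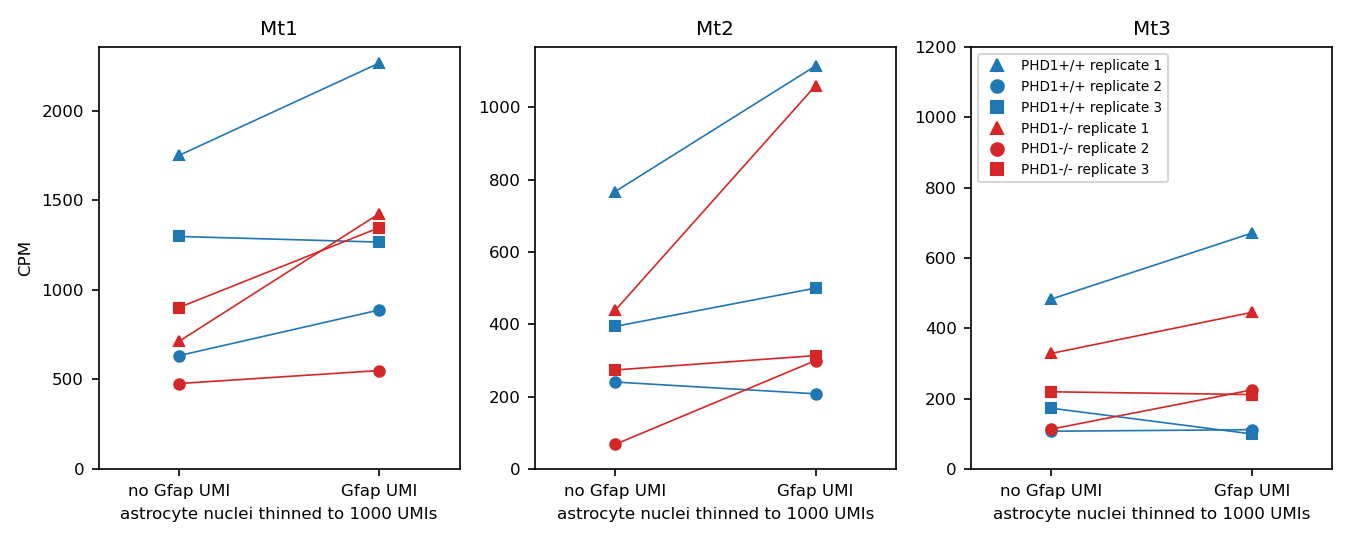
CPM of Mt1, Mt2 and Mt3 in astrocytes without and with a Gfap UMI, each nucleus thinned to 1000 UMIs, with a line per library. Lines rise in 5 of 6 libraries for Mt1 and for Mt2 and in 4 of 6 for Mt3.

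Genes with the most similar pattern over the 78 class-by-library sums were named by Pearson correlation of log2(CPM + 1) among 11880 genes. The sums share libraries, depth and cell classes, so the coefficients are descriptions. Over the 78 sums Mt1 and Mt2 were each other's closest gene, at r = 0.86, and Mt3 was closest to Mt2, at 0.84. Over the 52 sums of replicates 2 and 3 these values were 0.76 and 0.71, and other genes were closer. There Mt1 was closer to Ckb, the brain creatine kinase gene (0.81, and 0.83 over the 78 sums). Mt2 was closer to Prdx6, a peroxiredoxin gene (0.86, and 0.84 over the 78), and to Fxyd1, a regulator of the sodium pump (0.80 and 0.82). Mt3 was closer to Cd27, a receptor gene best known from lymphocytes (0.75 and 0.82). The other close genes of Mt1 over the 78 sums were Dbi, for the acyl-CoA-binding protein (0.86, and 0.76 in replicates 2 and 3), and Aldoc, a glycolytic aldolase gene of astrocytes (0.84 and 0.76). Dbi was also close to Mt2 (0.81 and 0.67) and Mt3 (0.82 and 0.66), and Cox5b, for a subunit of the respiratory chain, to Mt3 (0.77 and 0.50).

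Mtf1 did not follow the metallothioneins. Its correlation over the same sums was -0.07 with Mt1, -0.13 with Mt2 and -0.11 with Mt3, and -0.17, -0.27 and -0.26 over those of replicates 2 and 3. Its closest genes were Brwd3 (0.67), Pld3 (0.66), Dnajc11 (0.65), Secisbp2 (0.65) and Ilf2 (0.65), and over replicates 2 and 3 these 5 coefficients were 0.73, 0.70, 0.65, 0.69 and 0.67.

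Genes for zinc and copper transport set the metallothioneins in context. These genes were not kept out of the clustering, so their class differences are a description of the classes. Of 19 zinc transporter genes tested, 6 were called higher and 5 lower in astrocytes than in oligodendrocytes, where 24.6% and 32.7% of all genes were (edgeR quasi-likelihood), and 7 higher and 4 lower than in excitatory neurons, where 28.9% and 32.8% were. The importer gene Slc39a12 was called higher in astrocytes against 12 of 12 classes. Its median was 821 CPM in astrocytes, 378 CPM in ependymal cells and 2.66 CPM in oligodendrocytes. Slc39a14, an importer of zinc, iron and manganese, was also called higher against 12 of 12 (median 128 CPM in astrocytes and 35.7 CPM in oligodendrocytes). Slc30a10, a manganese exporter, was called higher against 10 of 12 and lower against 1 (median 37.1 CPM in astrocytes and 0.659 CPM in oligodendrocytes).

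Slc30a1, the zinc exporter gene that MTF1 is known to act on, had a median of 17.8 CPM in astrocytes, 20.3 CPM in ependymal cells and 164 CPM in endothelial cells. It was called higher in astrocytes against 6 classes and lower against 1. Slc39a10 was called lower against 7 classes and had 1068 CPM in endothelial cells against 32.8 CPM in astrocytes. Of 12 copper genes tested, 3 were called higher and 4 lower than in oligodendrocytes, beside 24.6% and 32.7% of all genes. Against excitatory neurons 9 were called higher and 1 lower, beside 28.9% and 32.8% of all genes. Atp7b, a copper-exporting ATPase gene, was called higher against 11 classes (median 33.6 CPM in astrocytes and 0.596 CPM in oligodendrocytes) and Atp7a, its relative, against 8 and lower against 1. Sod1 was called higher against 4 and lower against 4, but reads of the human transgene cannot be told apart from those of the mouse gene here.

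Lists of genes known to respond to other inducers of Mt1 and Mt2 were read in the same way, also as a description. Of 11 glucocorticoid-response genes tested, 9 were called higher and 2 lower in astrocytes than in excitatory neurons, beside 28.9% and 32.8% of all genes. Against oligodendrocytes 1 was higher and 3 lower (24.6% and 32.7% of all genes), against endothelial cells 1 and 4 (25.9% and 19.9%) and against meningeal fibroblasts 3 and 4 (19.7% and 16.9%). Tsc22d3 was called higher against 10 of 12 classes (median 167 CPM in astrocytes), while Fkbp5 was called lower against 7 and Sgk1 against 9, so the members of this list went both ways. Of 8 NRF2 targets, genes of the antioxidant response, 3 were called higher and 1 lower than in excitatory neurons (28.9% and 32.8% of all genes). Against oligodendrocytes 2 were higher and 4 lower (24.6% and 32.7%). The reactive astrocyte list had 8 of 9 genes called higher and 0 lower than in excitatory neurons (28.9% and 32.8% of all genes). Against oligodendrocytes 6 were higher and 1 lower (24.6% and 32.7%), and against endothelial cells 3 and 4 (25.9% and 19.9%). Gfap was called higher against 12 of 12 classes and Stat3 against 8 of 12. Vim and Il6st were each called higher against 7 classes and lower against 3.

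PHD1-/- and PHD1+/+ libraries were not told apart by any of the 4 genes. In all nuclei Mt1 was 1244, 76.2 and 90.9 CPM in PHD1+/+ replicates 1 to 3 and 395, 51.9 and 102 CPM in PHD1-/- replicates 1 to 3. Replicate 1 was high in both groups, and the other libraries overlapped. The log2 fold change, PHD1-/- over PHD1+/+, was -1.38 ± 1.24 (SE) for Mt1, -1.37 ± 1.42 for Mt2, -1.02 ± 0.95 for Mt3 and 0.05 ± 0.14 for Mtf1, with an adjusted p of 1.00 for each (edgeR quasi-likelihood, Benjamini-Hochberg over 19342 genes). No gene was called in all nuclei (0 of 19342, 0%; 90 genes had an unadjusted p under 0.05, and DESeq2 also called 0).

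The sign of the change in all nuclei rested on PHD1+/+ replicate 1. Without that library the log2 fold change was 1.11 for Mt1, 1.49 for Mt2 and 0.74 for Mt3, and with replicates 2 and 3 alone it was -0.10, -0.23 and -0.03. None of these values was called. With the replicate number as a block it was -0.69 ± 0.30 for Mt1, -0.80 ± 0.31 for Mt2 and -0.50 ± 0.26 for Mt3 (edgeR, adjusted p = 0.811, 0.811 and 0.814). All-nuclei sums also move with the makeup of a library, so fewer cells of a class and less RNA per cell cannot be told apart in them. These sums also take in nuclei outside the 13 classes. Of the 37988 Mt1 UMIs, 9852 were in the mitochondria-rich clusters with astrocyte markers and 9552 in clusters left unnamed.

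Within astrocytes Mt1 was 2136, 748 and 1199 CPM in the PHD1+/+ libraries. In the PHD1-/- libraries it was 1154, 603 and 999.6 CPM, again in the order of replicates 1 to 3. Mt2 was 1037, 252 and 365 CPM in PHD1+/+ and 759, 192 and 277 CPM in PHD1-/-. For both genes each PHD1-/- library was lower than the PHD1+/+ library of the same number, and the groups overlapped. The log2 fold change was -0.60 ± 0.43 (SE) for Mt1, -0.45 ± 0.65 for Mt2 and -0.10 ± 0.54 for Mt3, none of them called (edgeR quasi-likelihood, adjusted p = 1.00). With the replicate block the value was -0.50 ± 0.15 for Mt1 and -0.43 ± 0.15 for Mt2 (adjusted p = 0.980 for both, edgeR). Without PHD1+/+ replicate 1 it was -0.03 for Mt1 and 0.48 for Mt2. With the mitochondria-rich clusters added, a setting chosen after the data were seen, it was -1.31 ± 1.01 for Mt1 and -1.22 ± 1.10 for Mt2. Mtf1 did not pass the filter on low counts in astrocytes, where it averaged 20.2 ± 3.31 CPM in PHD1+/+ and 26.2 ± 6.41 CPM in PHD1-/- libraries (mean ± SD of 3; p = 0.2 by exact permutation).

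Over the 13 classes the mean of PHD1-/- was lower than that of PHD1+/+ in 13 classes for Mt1, 12 for Mt2, 12 for Mt3 and 4 for Mtf1. With replicates 2 and 3 alone the counts were 12, 11, 8 and 9. The classes share their libraries, and without PHD1+/+ replicate 1 the fitted change of Mt1 was positive in 9 of the 11 classes where it could be fitted. No member was called in any class, and no gene at all was called in any of the 13 (0% in each), with 628 at an unadjusted p under 0.05 summed over the classes and 2 called by DESeq2. With the replicate block 72 genes were called over the 13 classes, 51 of them in inhibitory neurons.

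Of 52 pairs of a class and a member, 1 had groups that did not overlap. This was Mtf1 in OPC, where PHD1+/+ replicates 1 to 3 had 18.0, 10.9 and 18.1 CPM, each below the 56.8, 33.2 and 25.7 CPM of PHD1-/- replicates 1 to 3. These levels rest on 6 to 19 UMIs per library. The log2 fold change was 1.24 ± 0.46 (SE), with an unadjusted p of 0.0231 and an adjusted p of 1.00 (edgeR quasi-likelihood over 7551 genes), and 5.8% of those genes had groups that did not overlap. In the other 12 classes that share of genes was 2.8% in endothelial cells, 3.06% in mural cells, 4.09% in microglia, 4.31% in excitatory neurons, 4.41% in Schwann cells, 4.56% in meningeal fibroblasts and 4.82% in inhibitory neurons. It was 4.95% in astrocytes, 5.71% in both ependymal cells and oligodendrocytes, 6.59% in newly formed oligodendrocytes and 6.93% in CSF-contacting neurons. The exact permutation test gave p = 0.1, the smallest it allows, and 0.912 after adjustment over 56 comparisons.

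**Figure D5:**
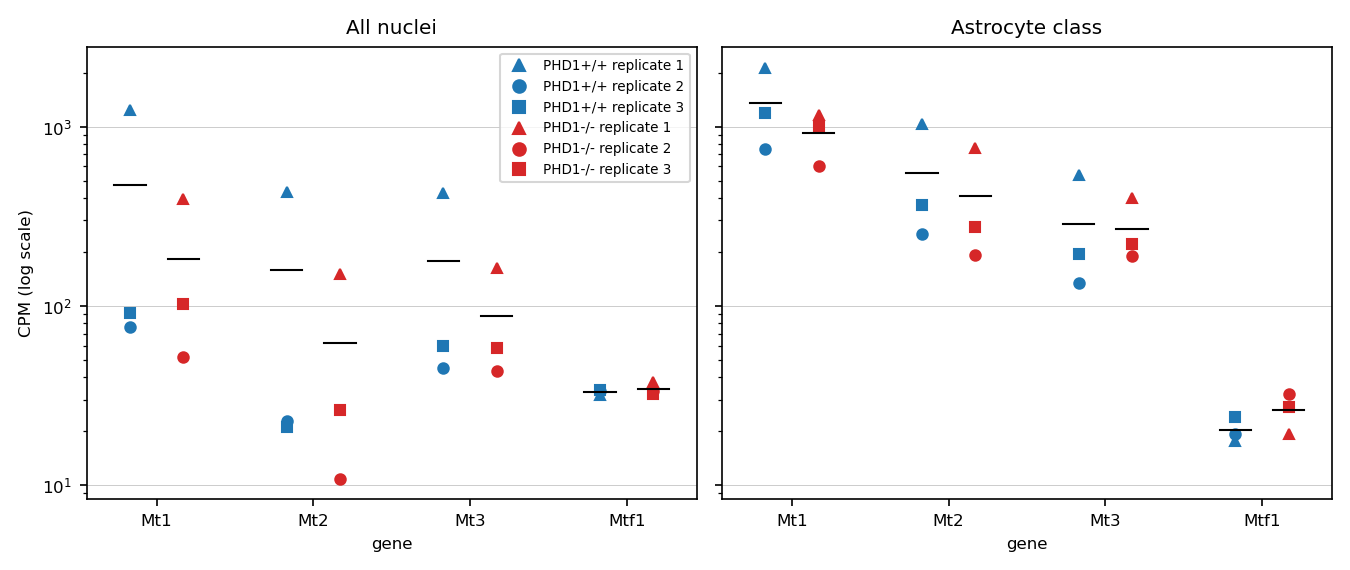
CPM of the 4 genes on a log scale in all nuclei (left) and in astrocytes (right), 1 point per library (triangles replicate 1, circles replicate 2, squares replicate 3), with the group mean as a line. The 2 triangles stand above the other libraries for the 3 metallothioneins in all nuclei, and the groups overlap for each gene.

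The ratio of replicate 1 to the other libraries differed between classes, in no strict order with the level of Mt1. In inhibitory neurons Mt1 was 11.0 times the mean of replicates 2 and 3 in PHD1+/+ and 5.14 times in PHD1-/-, and in oligodendrocytes 5.64 and 3.19 times. In newly formed oligodendrocytes the ratios were 3.97 and 3.55, in endothelial cells 4.45 and 2.16, in microglia 7.43 and 4.84 and in astrocytes 2.19 and 1.44. For Mtf1 they were 0.946 and 1.15 in all nuclei. The cytoplasmic RNA list in astrocytes was 6583 and 4080 CPM in the replicate 1 libraries and 2305 to 3166 CPM in the others, and its part in the raised levels was not tested.

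Among the lists of related genes, none had a gene called between genotypes. In all nuclei 12 of 21 zinc transporter genes were higher and 9 lower in PHD1-/- (median log2 0.03, against -0.01 for all 19342 genes). Of 14 copper genes, 5 were higher and 9 lower (median -0.07). The cytoplasmic RNA list was lower in 26 of 26 genes (median -0.51), the mitochondrial genes in 12 of 13 (median -0.46), the reactive astrocyte list in 10 of 13 (median -0.40), the glucocorticoid list in 12 of 13 (median -0.22) and the list of NRF2 targets, genes of the antioxidant response, in 10 of 12 (median -0.06). The 4 haemoglobin genes were all higher, with a median of 0.88. The cytoplasmic and mitochondrial lists thus had the sign of the 3 metallothioneins. So did the medians of the reactive astrocyte, glucocorticoid, NRF2 and copper lists. PHD1+/+ replicate 1 was the highest library for the cytoplasmic and mitochondrial lists too. The part of any of these lists in the metallothionein values was not tested.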

How the data were processed

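Nuclei were profiled with 10x 3′ libraries, 3 from PHD1+/+ and 3 from PHD1-/- mice. The authors deposited whole-number UMI counts per gene and barcode, not normalized; Cell Ranger 5.0.1 made them per the file headers, and 5.0.2 per the submitters' processing notes, which also list mm10 and Scanpy 1.8.1. The 4 genes and the lists were chosen with earlier results of these data known.

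Nuclei needed 500 UMIs, 300 genes and under 5% mitochondrial UMIs. The doublet caller marked 0 nuclei in both replicate 1 libraries, so it did not work there, and 109 to 269 in each of the others, which were removed. Nuclei were clustered with scanpy 1.11.5 (2000 variable genes, 30 components, 15 neighbours, Leiden resolution 1.0) without the 4 genes, and classes were named from marker lists, so they are rebuilt names. Counts were summed per class and library and tested with edgeR 4.0.16 (quasi-likelihood, Benjamini-Hochberg threshold 0.05, R 4.3.3), with classes of at least 10 nuclei in every library. The fits were also run on simulated counts with known changes, drawn independently for each library around the same mean per gene. The simulation held no shift of replicate 1, so it does not test the fits under such a shift. Single values were tested by exact permutation (scipy 1.17.1), two-sided.

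The named genes were the 4 members, Egln2, the 5 genes most correlated with each member among those with a mean of 10 CPM or more, and list genes that passed the threshold, up to 8 per list, or else a fixed set. Correlations used a pseudocount of 1 CPM, and limits for a count of 0 used 3 counts, which cover counting error only.

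Libraries with the same replicate number deviated together from their group means (r = 0.871, 0.695 and 0.630 over 19342 genes). The numbers were taken as pairs only in the alternative with the replicate block, and the main genotype tests used no pairing. Replicates 2 and 3 of opposite groups also correlated, at 0.517 and 0.573, and replicate 1 stood apart from both. These values do not settle which libraries are littermates. The alternatives tried were other scalings and filters, DESeq2 1.42.0, the replicate block, each library left out, replicates 2 and 3 alone, and nuclei of higher depth or lower mitochondrial share.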

Additional observations from a re-analysis of the deposited data

Results flagged for a closer look

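Metallothionein levels stood out in nuclei kept out of the 13 classes, those in clusters with astrocyte markers and much mitochondrial RNA. They were part of the sums over all nuclei and of 1 alternative for the astrocyte class. Mt1 was 10677 CPM in the 270 such nuclei of PHD1+/+ replicate 1 and 9530 CPM in the 54 of PHD1-/- replicate 1, against 2136 and 1154 CPM in the astrocyte class of the same libraries. Mt2 was 4021 and 3544 CPM, against 1037 and 759 CPM. Together these clusters held 9852 of the 37988 Mt1 UMIs of all nuclei. The other 4 libraries had 1 to 9 such nuclei each. The part that mitochondrial RNA plays in these levels was not tested. Another 2469 nuclei, in clusters left unnamed, were also outside the 13 classes and held 9552 Mt1 UMIs. Of these nuclei 1274 came from PHD1+/+ replicate 1. Of 39704 metallothionein UMIs in PHD1+/+ replicate 1, the mitochondria-rich clusters held 13218 and the unnamed clusters 13288. In PHD1-/- replicate 1 they held 1936 and 2249 of 9975. In PHD1+/+ replicate 2 they held 601 and 163 of 4383, and in PHD1-/- replicate 3 51 and 224 of 5178. Levels in all nuclei of replicate 1 thus rest in large part on nuclei outside the 13 classes, and those of the other libraries much less.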

How the results depend on the processing

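Over the alternatives run for the class differences, the value for Mt1 and for Mt2 stayed positive and called against each of 12 classes. For Mt3 the sign turned against ependymal cells (0.18 with the 4 genes among the clustering genes and 0.36 with the mitochondria-rich clusters, both chosen after the data were seen) and against Schwann cells (-0.028 with replicates 2 and 3 alone). The number of classes with lower Mtf1 was 2 to 5 with a library left out and 2 under each of replicates 2 and 3 alone, the 4 genes among the clustering genes and the mitochondria-rich clusters. Between genotypes, genes called over the 13 classes numbered 18 with no filter on low counts, 72 with the replicate block, 2 with DESeq2, 30 with replicates 2 and 3 alone and 0 to 17 with a library left out, the 17 without PHD1+/+ replicate 1. With a library left out, the log2 change in all nuclei ran from -2.61 to 1.11 for Mt1, -3.10 to 1.49 for Mt2, -1.81 to 0.74 for Mt3 and -0.0090 to 0.10 for Mtf1, which was -0.021 with replicates 2 and 3 alone. In astrocytes it ran from -0.91 to -0.03 for Mt1, -1.30 to 0.48 for Mt2 and -0.53 to 0.79 for Mt3, which was 0.045 with the replicate block and 0.38 with replicates 2 and 3 alone. None of these members was called. The replicate block changed no call on a member. Genes called in the Gfap split numbered 271, 624 without thinning and 172 to 280 with a library left out. There Mt2 ran from 0.35 to 0.68, and Mt3 was -0.041 when the split needed 2 Gfap UMIs. The causes were not tested. Mtf1 had 76 UMIs in all astrocytes, which limits its precision there.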
